A study of Drosophila melanogaster with 2 samples.

Results

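Exon summits are the lmd-eGFP peaks whose highest point fell inside an exon of a protein-coding gene, away from the transcription starts of such genes. They were chosen by position alone. The summit of a peak called on both replicates together, in the wider of the 2 joint sets, had to lie over 500 bp from every TSS (start site of transcription) annotated for protein-coding genes. It also had to lie in an annotated 5' UTR, coding sequence or 3' UTR, taken in that order where annotations overlapped. The rule found 210 summits in 191 genes, among 6361 summits on the 6 main chromosome arms and 6406 peaks in all. Of the 210, 31 lay in 5' UTRs, 125 in coding sequence and 54 in 3' UTRs. The stricter conservative set overlapped 100 of them, or 47.6%, against 74.9% of all main-arm summits.

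The assay was chromatin immunoprecipitation followed by sequencing, which recovers the DNA bound by a protein. Whole Drosophila melanogaster embryos of the strain lmd-GFP, aged 0 to 18 hours, expressed lame duck (lmd) fused to eGFP, and an antibody against GFP precipitated the fusion protein. The 2 biological replicates form 1 group that shares this genotype, age and antibody, so there was no second condition to compare with, and no p-value was computed. No tissue was isolated, so signal from muscle precursors and from other cells cannot be told apart, and the control libraries that the labels point to were not analysed here. Each peak carries the authors' signal value, which has no stated unit; values of different lists are set side by side but were not brought to a common scale. Read depth is not in the files used here and is unknown.

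The lmd protein binds DNA through zinc fingers like those of Gli and Zic proteins. It is needed in fusion-competent myoblasts, which join founder cells to form the body wall muscles of the larva, and it acts upstream of the muscle regulator Mef2. Transcription factors are mostly studied at promoters and at enhancers in introns or between genes. An exon summit lies in sequence that is also kept in the mature transcript, and in coding sequence the bases also spell the protein.

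The sequences at 5 summits of high signal are given first, 2 in 5' UTRs, 1 in coding sequence and 2 in 3' UTRs. Each run is 30 bases of the plus strand of dm6, from the RefSeq Release 6 genome, with the summit at its centre. The summit in baz lies at chrX:17178683-17178712, that in Raf at chrX:2296245-2296274, that in klar at chr3L:506186-506215, that in CG7872 at chrX:15579774-15579803 and that in by at chr3R:9528646-9528675.
baz 5' UTR: ttgttaatttagttatgtttttgtatatac
Raf 5' UTR: gcccttcatggagtaacgcatatcaacgga
klar coding sequence: aaggttcgtgtccataatgtagttgtagtt
CG7872 3' UTR: tggtcacaaaaaaagcacgccacattcgcg
by 3' UTR: aaatatgaatcagtggcgtttccaatagtt

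The next set shows members of the conservative set with the word CCACCCA within 100 bp of the summit, searched on both strands as a core of the sites that Gli-type zinc fingers bind. Capitals mark the word, or its reverse complement where the plus strand reads TGGGTGG. The runs lie at chr3L:11092334-11092363 in JIL-1, chrX:8973348-8973377 in CG10962, chr3L:8634676-8634705 in Zasp66, chr3R:20437853-20437882 in Gfrl, chr2L:18541292-18541321 in Pde11 and chr2L:3838285-3838314 in slp2. From summit to word the distance was 56 bp in JIL-1, 20 bp in CG10962, 92 bp in Zasp66, 41 bp in Gfrl, 66 bp in Pde11 and 34 bp in slp2.
JIL-1 5' UTR: gtgtgtgtgagTGGGTGGatctggatgggg
CG10962 coding sequence: gatctcggtggCCACCCAgccgggattgat
Zasp66 coding sequence: gctgtgcgcgcCCACCCAggacacgactac
Gfrl coding sequence: accgaagaggaCCACCCAcaggctgaggca
Pde11 coding sequence: ctccaccgctgCCACCCAgactgggtgctc
slp2 coding sequence: ccttcgtcgcaCCACCCAcgagcagtgagc

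Exons away from start sites held few summits for their size. They made up 25.8 Mb, or 19.3% of the bases of the main arms, and held 3.30% of the summits (Wilson 95% interval 2.89 to 3.77). This is 8.15 summits per Mb (exact Poisson 95% interval 7.08 to 9.32), against 47.5 per Mb over all bases. These intervals cover counting error only. The 3 classes differed among themselves. The 5' UTRs held 29.2 summits per Mb (19.9 to 41.5), coding sequence 6.69 (5.57 to 7.98) and 3' UTRs 8.93 (6.70 to 11.6), against 47.7 in introns, 30.2 outside protein-coding genes and 158 within 500 bp of a TSS. Another 445 summits lay on exon annotation within 500 bp of a TSS and are not members, 354 of them in 5' UTRs, 54 in coding sequence and 37 in 3' UTRs.

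**Figure D1:**
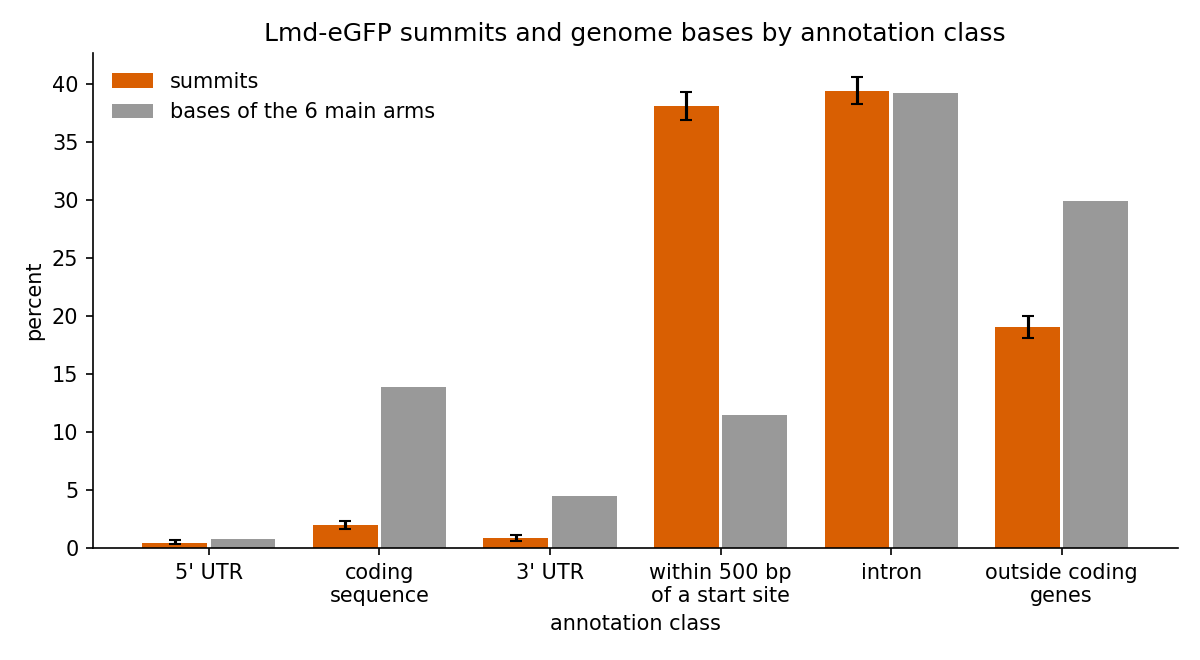
Percent of the 6361 main-arm summits (orange, with Wilson 95% intervals) and percent of the bases of the 6 main arms (grey) in each annotation class. Coding sequence away from start sites held 1.97% of the summits on 13.9% of the bases, 3' UTRs 0.849% on 4.52% and 5' UTRs 0.487% on 0.792%.

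Members lay on every main arm but the fourth chromosome, which held 3 summits in all. Their density ran from 6.97 per Mb of exon on 2L (4.77 to 9.84) to 9.43 on 3R (7.16 to 12.2), and the intervals of these arms overlap. The X chromosome had 19 of the 54 summits in 3' UTRs, at 13.5 per Mb (8.10 to 21.0), and 13 of the 125 in coding sequence, at 3.92 per Mb (2.09 to 6.71). On the other large arms the 3' UTR density was 5.03 to 9.80 per Mb and the coding density 6.33 to 8.30 per Mb. Of these 5 arms the X chromosome thus had the highest point value for 3' UTRs and the lowest for coding sequence, with intervals that overlap those of other arms in both.

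The summits in 5' UTRs included the strongest exon site. Signal ran from 4.92 to 1206 with a median of 102, against a median of 130 over all main-arm summits. Of the 31, 6 ranked among the first 1000 summits by signal. The site of highest signal lay in baz (bazooka), a scaffold of epithelial and neuroblast polarity, at chrX:17178539-17178848, in the second of 11 exon blocks (annotated exons merged within a gene) and 18691 bp from the nearest TSS. Its signal of 1206 ranked 85 among all summits, and the overlapping peaks had 571 in the replicate 1 list and 657 in the replicate 2 list. A second baz summit, 1968 bp away in the same exon block, had a signal of 222, with 81.6 in replicate 1 and 140.1 in replicate 2. Both were in the conservative set and in the thresholded sets of both replicates.

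The 5' UTR summits that followed by signal included those in Raf, cic, Mef2 and ush. Raf, the kinase that carries receptor tyrosine kinase signals to MAP kinase, had a signal of 438, with 238 in replicate 1 and 199.5 in replicate 2. The summit in cic (capicua), an HMG-box repressor that this signalling inactivates, had 408.5, with 168 in replicate 1 and 245 in replicate 2. Mef2, which encodes the MADS-box factor of muscle differentiation, held a summit of signal 441 at chr2R:9942869-9943102, with 124 in replicate 1 and 306 in replicate 2. That base is exonic in 1 of the 11 annotated Mef2 transcripts and lies 1785 bp from the nearest Mef2 TSS. The summit in ush (u-shaped), a zinc finger cofactor of GATA factors, had 235, with 61.1 in replicate 1 and 179 in replicate 2. All of these were in the conservative set and in both replicate sets. Over all main-arm summits, both replicate sets overlapped 3178 of 6361. The conservative set held 99.3% of all summits ranked 1 to 1000 by signal and 97.9% of those ranked 1001 to 2000.

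Other 5' UTR sites of high signal lay in Fbl6, eas, CG15247, Hsp22 and Pi3K92E. Fbl6, an F-box protein with leucine-rich repeats, had a signal of 637, with 284 in replicate 1 and 352 in replicate 2. The ethanolamine kinase gene eas (easily shocked) had 570.4, with 259 in replicate 1 and 320 in replicate 2. CG15247 had 292, the small heat shock protein gene Hsp22 had 231 and Pi3K92E, the catalytic subunit of phosphoinositide 3-kinase, had 212. Top2 (topoisomerase 2), with 145, was the next and had a peak in the replicate 2 set only, and CG5966, with 117, in the replicate 1 set only.

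Weaker 5' UTR sites were less often repeated. Signals of 99.3 to 105 were found in C3G, an exchange factor for the GTPase Rap1, in SREBP, a factor of lipid synthesis, in CG4080 and in JIL-1, a histone H3 kinase, all in the conservative set. Of the 14 summits below these, only those in Ask1 (72.4), a stress-activated MAP kinase kinase kinase, and cdi (9.44), a protein kinase gene, overlapped the conservative set. The other 12 lay in Octbeta2R, CG7255, HisRS, pre-mod(mdg4)-U, CG13003, nAChRalpha1, which had a pair, ClC-c, CG5151, EcR, CG17193 and Pka-C1, with signals of 4.92 to 98.8. Weak 5' UTR summits were thus mostly outside the conservative set, as weak summits of all classes often were. The set held 63.6% of all summits ranked 4001 to 5000 and 23.3% of those ranked 5001 to 6000. In 5' UTRs it held 2 of 5 and 1 of 8 in these bands. The cdi summit had another summit within 250 bp, whose peak may be the one it overlapped.

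Coding sequence held the most members and the weakest ones. Signal ran from 2.33 to 719 with a median of 67.5, and 1 of the 125 ranked among the first 1000 summits. That summit lay in otp (orthopedia), a homeodomain gene, at chr2R:20884439-20884735, in the last of its 9 exon blocks and 4663 bp from the nearest TSS. Its signal was 719, with 222 in replicate 1 and 490.1 in replicate 2, and the base is exonic in all 9 annotated transcripts. Only 4 coding summits reached a signal of 200: those in otp, klar, Pde1c and l(3)mbn.

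The next 3 were repeated in both replicates. The summit in klar (klarsicht), a KASH-domain protein that links nuclei to microtubule motors, had 264, with 84.0 in replicate 1 and 179 in replicate 2. In Pde1c, a calcium-dependent phosphodiesterase gene, the signal was 256, with 162 in replicate 1 and 97.9 in replicate 2. In l(3)mbn it was 223, with 77.8 in replicate 1 and 145 in replicate 2. The other 8 of the 12 highest lay in CG10962, CG31259, HisRS, bif, CG32428, nAChRbeta1, CG1986 and CG1632, with signals of 113 to 148. All 12 were in the conservative set. Of the 12, 7 were in both replicate sets, against 3178 of all 6361 main-arm summits. The 12 ranked 243 to 3667 by signal. The conservative set held 99.3% of all summits ranked 1 to 1000 and 82.4% of those ranked 3001 to 4000.

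**Figure D2:**
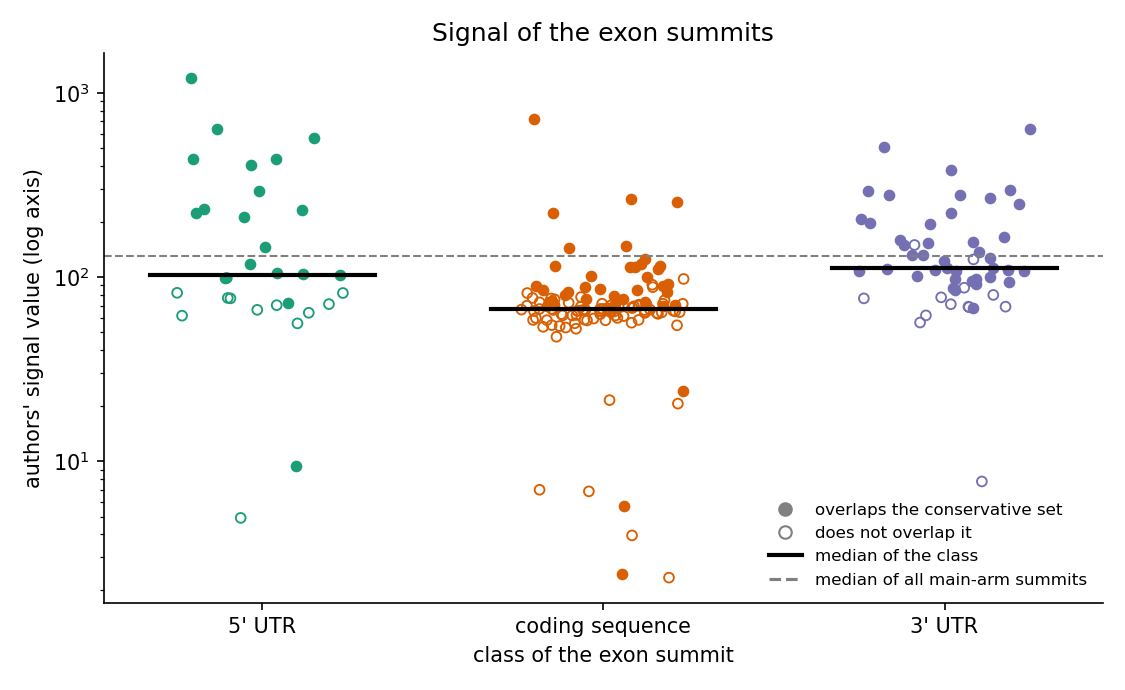
The authors' signal value (log axis) of each of the 210 exon summits by class, filled where the peak overlaps the conservative set and open where it does not; black lines are class medians (102, 67.5 and 111) and the dashed line is the median of all main-arm summits (130). Most coding summits form a narrow band around their median, and a group of 12 members lies under 30.

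The 3' UTR summits were of middling signal, and their share in the conservative set was near that of all summits. Signal ran from 7.76 to 636 with a median of 111. The conservative set overlapped 41 of the 54, or 75.9%, against 74.9% of all main-arm summits. The highest lay in CG7872, a gene of 1 exon block, 69 bp from its 3' end, at chrX:15579661-15579920. It had a signal of 636, with 135 in replicate 1 and 495 in replicate 2. The summit in by (blistery), the tensin of integrin adhesion sites, had 508, with 122 in replicate 1 and 390.5 in replicate 2, and lay 422 bp from the gene's 3' end. The replicate 2 value was the larger number for both genes, as at 68.3% of all main-arm summits with a peak in both ranked lists.

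Other 3' UTR sites of high signal did not all lean the same way. In scf (supercoiling factor) the signal was 298, with 180.2 in replicate 1 and 114 in replicate 2. In chic, which encodes profilin, it was 249, with 60.3 in replicate 1 and 186 in replicate 2. In NetB, a netrin guidance cue, it was 223, with 123 in replicate 1 and 102 in replicate 2. Tctp, a conserved growth-associated protein, had 279, and Myd88, the adaptor of Toll signalling, had 196. The rest of the 12 highest were CG10357 (381), stas (294), CG33307 (279), CG12025 (268) and CG8206 (208). All 12 were in the conservative set. Of the 12, 11 were in both replicate sets, against 3178 of all 6361 main-arm summits. The exception, CG8206, was in the replicate 2 set only. Such signal seldom falls outside the conservative set. It held 99.3% of all summits ranked 1 to 1000 and 97.9% of those ranked 1001 to 2000.

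Overlap with the sets called on each replicate alone was less frequent for exon summits than for all summits. The replicate 1 set overlapped 59 of the 210 members, or 28.1% (Wilson 95% interval 22.5 to 34.5), against 59.1% of all main-arm summits. The replicate 2 set overlapped 92, or 43.8% (37.3 to 50.6), against 77.7%. Both sets overlapped 42 members, or 20.0%, against 3178 of all summits, or 50%, and neither overlapped 101, or 48.1%, against 13.2%. The 210 members are part of the 6361 in each of these pairs. Close summits can match the same replicate peak, but each was counted as its own site. Another summit lay within 250 bp of 26 members, or 12.4%, against 9.43% of all summits.

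The classes contributed unequally to this. Of the 125 coding summits, 84 were in neither replicate set and 10 in both. Of the 54 in 3' UTRs, 8 were in neither and 19 in both, and of the 31 in 5' UTRs, 9 were in neither and 13 in both. The conservative set overlapped 40 of the coding summits (24.5 to 40.6%), 61.3% of those in 5' UTRs (43.8 to 76.3) and 75.9% of those in 3' UTRs (63.1 to 85.4). The 3' UTR share is close to the 74.9% of all summits, while the coding share lies below it by more than its interval.

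Almost every member had some peak in each replicate's list without threshold. The ranked list of replicate 1 overlapped 207 members and that of replicate 2 overlapped 208, with 205 in both. These lists are long, at 112073 and 89892 main-arm peaks, and overlap 96.6% of all main-arm summits in both, so this overlap does not set the members apart. Over the members with a peak in the list, the median signal was 48.4 in replicate 1 and 59.5 in replicate 2 for 5' UTRs, 36.5 and 33.9 in that order for coding sequence, and 52.1 and 66.4 for 3' UTRs. Over all summits the medians were 60.2 in replicate 1 and 77.8 in replicate 2. The replicate 2 value was the higher in 57 of 123 coding summits, in 22 of 31 in 5' UTRs and in 32 of 51 in 3' UTRs, against the 68.3% of all summits given above. By rank within each list, which does not depend on the scale of the values, replicate 2 ranked better in 51 of 123 coding summits, 15 of 31 in 5' UTRs and 29 of 51 in 3' UTRs, against 51.9% of all summits. The larger replicate 2 values of 5' UTR summits were thus not matched by better ranks.

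**Figure D3:**
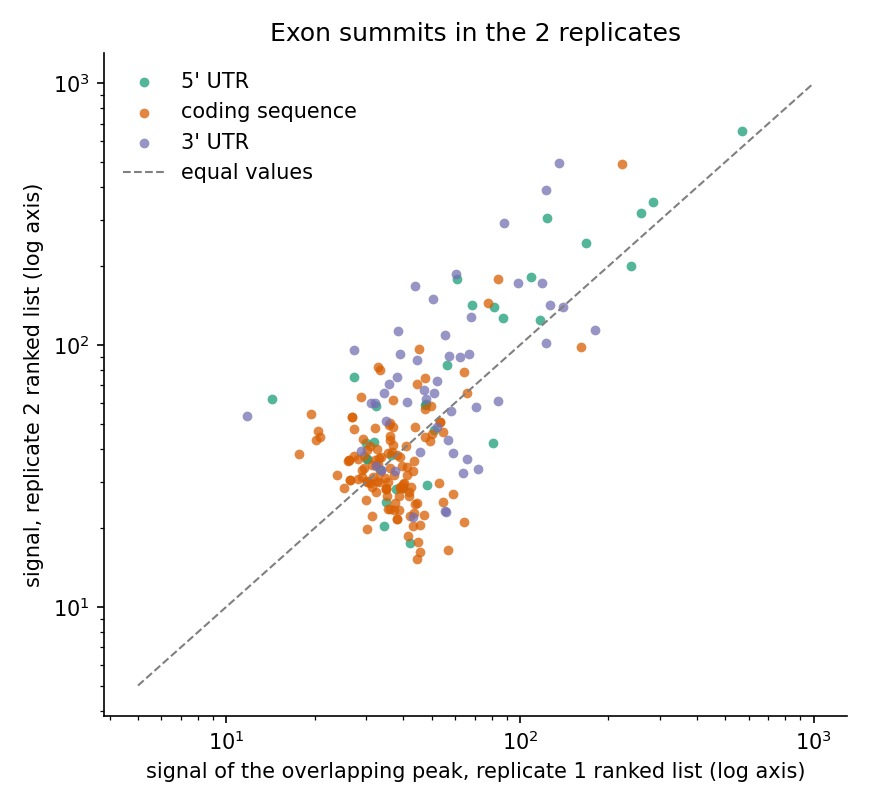
Signal of the overlapping peak in the ranked list of replicate 1 (x axis) and of replicate 2 (y axis), both on log axes, for the 205 exon summits with a peak in both lists, coloured by class; the dashed line marks equal values. Coding summits gather at low values on both sides of the line, and the 5' UTR and 3' UTR summits extend to higher values, mostly above the line.

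Coding summits lay mostly low in the signal ranking. Coding sequence held 1 of the first 1000 summits by signal, 3 of the next 1000, and then 2, 7 and 15, but 70 of those ranked 5001 to 6000 and 27 of the last 361. The 5' UTR and 3' UTR summits had no such rise: 3' UTRs held 3 to 14 summits in each of the 6 full bands of 1000. Within bands the conservative share of members was near or above that of all summits down to rank 5000: 23 of 24 members ranked 3001 to 4000 overlapped the conservative set, against 82.4% of all summits there, and 22 of 30 ranked 4001 to 5000, against 63.6%. Among ranks 5001 to 6000 it was 15 of 87, or 17.2%, against 23.3%, and in the last band 4 of 32, or 12.5%, against 43.5%. The last band joins unlike summits. Of its 361 summits, 191 had a signal under 30, and 183 of these had another summit within 250 bp. The conservative peak they overlap can be that of the neighbour. Of the 32 members, 12 were of this kind, so the 2 shares of this band are not alike in make-up.

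**Figure D4:**
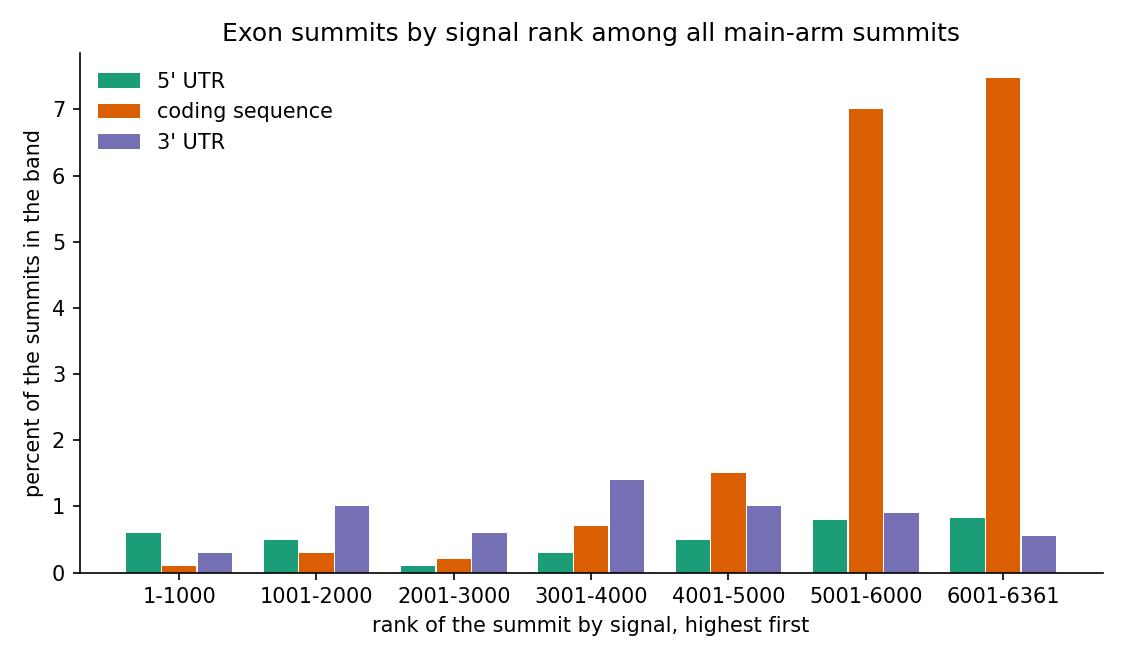
Percent of the main-arm summits in each band of signal rank (highest first, 1000 summits a band, 361 in the last) that lie in 5' UTRs, coding sequence or 3' UTRs away from start sites. Coding sequence makes up 0.1% of the first band and 7.0% of the band from 5001 to 6000, while the UTR classes stay at or below 1.4% throughout.

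Peak width separated the members only in part. The most common width of the set, 364 bp, was that of 183 of the 210 members and of 4384 of the 6361 summits. All 110 members outside the conservative set had this width, which was also the median of those inside it. The 27 narrower members, down to 91 bp, were all in the conservative set, as were 1852 of the 1893 narrower peaks among all summits. The score, a whole number from 830 to 1000 in this set, had its upper limit as the median in both UTR classes and a median of 951 in coding sequence.

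Coding summits lay in sequence rich in G and C. Within 100 bp of the summit the median was 59.2% G or C for coding summits, against 52.2% at coding positions tiled every 200 bp over the same class and 35.3% for all main-arm summits. The windows had a higher share of G and C than the whole coding sequence of their own gene in 88 of 125 cases, with a median difference of 2.52 percentage points. In 5' UTRs the median was 41.3%, against 45.3% at tiled positions, and in 3' UTRs it was 37.1%, against 35.3%. Over all main-arm summits, 244 windows reached 55% G or C, and 86 of these were coding summits.

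Members in the conservative set had a median of 45.0% G or C, against 57.7% for those outside it, but coding summits were 40 of the 100 inside and 85 of the 110 outside. Within classes the medians inside and outside lay closer in coding sequence, at 57.2% and 59.2%, and in 3' UTRs, at 36.8% and 39.3%, than in 5' UTRs, at 40.8% and 51.0%. Of the 86 coding summits at or above 55% G or C, 25 overlapped the conservative set, or 29.1% (20.5 to 39.4), and 63 were in neither replicate set. Of the 39 below 55%, 15 did, or 38.5% (24.9 to 54.1), and 21 were in neither. The intervals of these shares overlap, and median signal was 67.4 at or above 55% and 67.5 below it. The 4 coding summits of highest signal had 57.2% in otp, 53.7% in klar, 62.7% in Pde1c and 37.3% in l(3)mbn. Whether base composition bears on the calling of these peaks was not tested.

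**Figure D5:**
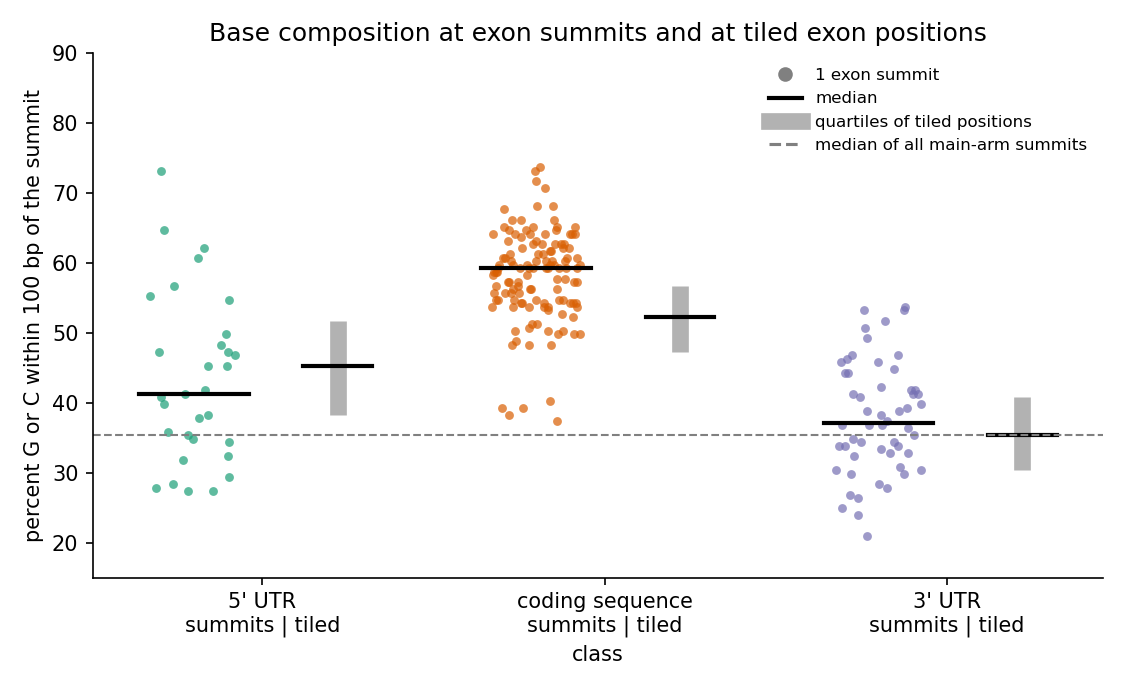
Percent G or C within 100 bp of each exon summit (points, median as a black line) beside the quartiles and median of tiled exon positions of the same class (grey bars), with the median of all main-arm summits as a dashed line. Coding summits have a median of 59.2%, above the 52.2% of tiled coding positions, while 3' UTR summits, at 37.1%, lie near their tiled positions and near all summits.

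Short words known from muscle and promoter factors were counted within 100 bp of the summits. At least 1 of the 19 searched was present at 63.3% of members, against 63.0% of tiled exon positions and 78.7% of all summits. The Gli-type word CCACCCA was found at 13 of the 210 members, or 6.19% (3.65 to 10.3), against 5155 of 128837 tiled exon positions and 2.26% of all summits. Among coding summits it was at 11, or 8.80% (4.98 to 15.1), against 4.51% of tiled coding positions. At coding windows of at least 55% G or C it was at 9 of 86 summits, or 10.5% (5.60 to 18.7), against 6.45% of tiled positions of that composition. The tiled share thus lay just below the interval over all coding summits and inside it in the windows rich in G and C. Of the 13 members, 7 were in the conservative set: the 6 whose sequences are printed above and CG13743. Among them CG10962 had the highest signal, 148, and slp2, a forkhead factor of segmentation, the lowest, 71.7.

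A further pair of words rich in C was also more frequent at members than at tiled positions. The Zic-type word CCCGCTG was at 13 members, or 6.19% (3.65 to 10.3), against 2.74% of tiled positions and 1.46% of all summits. In coding windows of at least 55% G or C it was at 10 of 86, or 11.6% (6.44 to 20.1), against 5.60%. A run of CCCCCC was at 17 members, or 8.10% (5.12 to 12.6), against 1.90% of tiled positions and 3.73% of all summits. In coding windows of at least 55% G or C it was at 9 of 86, or 10.5% (5.60 to 18.7), against 2.33%. Unlike for CCACCCA, the tiled share lay below the interval for both words in these windows too. Of the 13 members with CCCGCTG, 3 were in the conservative set, and 12 of the 17 with CCCCCC, against 47.6% of all members. These pooled shares join classes that differ. In coding sequence 3 of 11 members with CCCGCTG and 6 of 11 with CCCCCC were in that set, against 40 of all 125. The other members with CCCCCC, 3 in each UTR class, were all in the set. The other 2 with CCCGCTG, both in 5' UTRs, were outside it. Words rich in A and T were less frequent at members than at all summits. TATAAA was at 13.3% of members, against 13.8% of tiled exon positions and 35.0% of all summits, and the homeodomain word TAATTA at 5.71%, against 6.72% and 17.1%. The Mef2 consensus was at 3.81%, against 3.65% of tiled positions and 11.6% of all summits. For TATAAA the pooled share joins classes that differ: it was at 12 of 31 summits in 5' UTRs, or 38.7% (23.7 to 56.2), against 16.6% of tiled 5' UTR positions, and at 10 of 54 in 3' UTRs, or 18.5% (10.4 to 30.8), against 34.7% of tiled 3' UTR positions. In coding sequence it was at 6 of 125, or 4.80% (2.22 to 10.1), against 6.81%. Its tiled share thus lay below the interval in 5' UTRs, above it in 3' UTRs and inside it in coding sequence.

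TATCGATA, bound by DREF, and GGTCACAC, bound by M1BP, were each at 0 of 210 members, which allows a share of up to 1.43% by 3 counts and of 1.80% by the Wilson interval. TATCGATA was at 2.67% of all summits and 0.266% of tiled exon positions, and GGTCACAC at 1.67% and 0.314%. The share of GGTCACAC at all summits lies between these limits, so its absence from the members does not set them apart at this number. The words CGATA of BEAF-32, at 19.5% of members and 23.3% of tiled positions, and GGAAGT of Ets factors, at 8.10% and 9.31%, were near the tiled shares with the classes pooled. In coding sequence CGATA was at 19 of 125 summits, or 15.2% (9.95 to 22.5), with the tiled share of 22.8% just above the interval. In coding windows of at least 55% G or C it was at 16.3% (9.95 to 25.5), against 18.2%. In 3' UTRs it was at 27.8% (17.6 to 40.9), against 24.8%, and in 5' UTRs at 22.6%, against 22.9%. The remaining words, CACTTGA of Tinman, the E-boxes CATATG and CACATG of Twist-type factors, AGATAAG of GATA factors, CAGGTA of Zelda, AACCNGTT of Grainyhead, and GTGGGAA of Su(H), were each at 3 to 17 members, with the tiled share inside the interval. GAGAGAG was at 8 members, or 3.81% (1.94 to 7.34), against 1.56% of tiled positions and 2.67% of all summits. CACACACA was at 1 member, or 0.476% (0.0841 to 2.65), against 2.08% and 3.16%. CGATA can overlap TATCGATA. A word in a window is a description and does not show that it was bound.

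The exons that held the summits differed by class in length and use. Coding summits lay in exon blocks of a median of 617 bp, against 996 bp at tiled coding positions. They were exonic in every annotated transcript of the gene in 100 of 125 cases (72.1 to 86.1%), against 88.6% of tiled positions. Summits in 3' UTRs were exonic in every transcript in 37.0% (25.4 to 50.4), against 49.6%, and those in 5' UTRs in 9 of 31 (16.1 to 46.6%), against 44.7%. All 3 shares were below the tiled ones, the coding share by more than its interval.

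Summits in 3' UTRs lay in genes with few exon blocks, a median of 3.5, against 7 at tiled 3' UTR positions. Of the 54, 50 were in the last exon block, or 92.6% (82.4 to 97.1), close to the 90.6% of tiled 3' UTR positions. In genes of a single exon block there were 12, or 22.2% (13.2 to 34.9), against 6.40% of tiled 3' UTR positions. The nearest TSS belonged to another gene for 27 of the 54, as in chic, where it was that of Ucp4B. For coding summits this was so in 42 of 125, and for 5' UTR summits in 2 of 31. Of the 5' UTR summits, 22 of 31 lay within 1000 bp of a TSS, against 32 of 125 coding and 7 of 54 in 3' UTRs. These counts by nearest TSS were not made at tiled positions, so they do not set the summits apart from other bases of their class.

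Some members lay on or near another annotated element. A TSS of a non-coding gene lay within 500 bp of 5 members, 3 in coding sequence, in l(2)34Fc, Csk and CG42676, and 2 in 3' UTRs, in Plzf and CG43389. A non-coding gene overlapped 4 coding summits, those 3 and the one in CG10962, which is 1.90% of members against 1.92% of tiled exon positions. No member lay on a transposable element, against 0.236% of tiled positions, and 15, or 7.14% (4.38 to 11.4), lay inside another protein-coding gene, against 9.03%. The members were thus close to the tiled positions in overlap with non-coding genes and with other protein-coding genes. For transposable elements the interval runs from 0 to 1.80%, so the count of 0 does not set the members apart. The TSS of non-coding genes were not counted at tiled positions. The peak lay wholly in exons for 56 of 125 coding summits, 42 of 54 in 3' UTRs and 18 of 31 in 5' UTRs, so many coding peaks also covered bases outside exons. The window in CG15635 had 9 near copies elsewhere in the genome, of at least 100 bp at 90% identity, and its position is uncertain for that reason. No other member's window had one.

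In 19 genes the rule found 2 summits, and in none 3. In 9 of the 19 the summits lay within 250 bp, at 199 to 210 bp from each other: nAChRbeta1, CG2694, nAChRalpha1, ClC-c, corto, 18w, CG5021, boss and gbb. The lower of each pair had a signal of 2.33 to 24.0 and the higher 52.4 to 115. Such pairs made up much of the low tail. All 12 members with a signal under 30 had another summit within 250 bp, as did 183 of the 191 such summits over all arms. For these the overlapping peak in a replicate's list can be that of the neighbour.

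The other 10 genes had summits 1322 to 31802 bp apart. In baz both were in the 5' UTR, and in eas a strong 5' UTR summit (570.4) stood 5863 bp from a weak one in the 3' UTR (71.2). HisRS, histidyl-tRNA synthetase, had 1 in coding sequence (125) and 1 in the 5' UTR (81.9). Cam, the calmodulin gene, had both in the 3' UTR (112 and 80.0), and Crag and MESK2 had 1 each in the 3' UTR and in coding sequence. Pde11, mld, mspo and KrT95D had both in coding sequence, with signals of 58.2 to 78.7. In baz and MESK2 both summits were in the conservative set, and in KrT95D neither was.

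Genes of muscle and of chosen pathways were counted by list. The 6 lists together named 180 genes, which held 12 of the 210 summits, or 5.71% (3.30 to 9.72), against 3.59% of tiled exon positions. The tiled share lies inside the interval. Of the 12, 9 were in the conservative set, against 47.6% of all members and 74.9% of all main-arm summits. From the list for myoblast fusion (24 genes), Rac2, a GTPase of actin remodelling, and rst (roughest), an adhesion receptor of myoblasts, each held 1 summit in the 3' UTR, which is 0.952% of members against 0.343% of tiled exon positions. Rac2 had a signal of 127, with 70.7 in replicate 1 and 58.1 in replicate 2, and its summit also lies within the bounds of CG42458. The rst summit had 109, with 72.1 in replicate 1 and 33.5 in replicate 2, and also lies within the bounds of kirre, the neighbouring gene of a related receptor. Both were in the conservative set, and rst was in the replicate 1 set only.

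From the mesoderm and muscle transcription factors (34 genes), Mef2 and H15, a T-box factor, held 1 each, or 0.952% against 0.408%. H15 had a signal of 71.8 in coding sequence, was in the conservative set and was in neither replicate set. From the sarcomere list (27 genes), Zasp66, a Z-disc protein, had 89.7 and Msp300, a nesprin of muscle nuclei, had 72.9, which is 0.952% of members against 0.964% of tiled positions. From the muscle attachment list (22 genes), Lrt, a leucine-rich protein of tendon cells, had 65.4, or 0.476% against 0.513%.

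From the signalling list (46 genes), Raf, mam (mastermind, the Notch coactivator) and pros (prospero, a homeodomain factor of neural lineages) held 1 each, or 1.43% against 0.785%. The coding summit in mam had a signal of 69.8, and the 3' UTR summit in pros had 99.7. From the chromatin list (29 genes), JIL-1 and Su(z)2, a Polycomb group gene, held 1 each, or 0.952% against 0.599%. With 1 to 3 summits a list, the shares cannot be told from those of the tiled positions at this depth.

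The 500 bp limit divides sites that differ little in distance. Just over it were the summits in Hsp22, at 501 bp with a signal of 231, in Fbl6, at 511 bp with 637, and in Csk, a kinase that restrains Src, at 527 bp with 67.1. Just within it, and so no members, were exon summits in CG32266, at 484 bp with 73.6, in CG13954, at 482 bp with 183, and in Hk, at 478 bp with 6.98. Signals on both sides of the limit covered a wide range.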

How the data were processed

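The authors deposited peak lists of the narrowPeak format in dm6 coordinates, per the labels; aligner and peak caller: not given in the sources used here. From the deposited lists, read by the column order of that format, the authors' signal, their score up to 1000 and the summit offset (a position) were taken. IDR, the irreproducible discovery rate, measures how well peaks repeat between replicates. Read depth per sample is unknown, and intervals cover counting error only.

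Summits on the 6 main arms were classed with Ensembl annotation 115 on genome Release 6 (Python 3.11.15, numpy 2.4.6, pandas 2.3.3, scipy 1.17.1, matplotlib 3.10.9). Sets were matched by overlap of at least 1 bp, near copies were sought with BLAST+ 2.17.0, and the code was tested on simulated data. Members and lists were chosen with earlier results of these data known. Named were all 5' UTR members, the 12 of highest signal in coding sequence and in 3' UTRs, genes with 2 members, members in listed genes, those next to the 500 bp limit, and a few others chosen after their values were seen.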

Additional observations from a re-analysis of the deposited data

How the results depend on the processing

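The number of exon summits stayed within 1.5 times of 210 under other promoter distances (274 at 250 bp, 149 at 1000 bp), with start sites of all genes (205), by peak centre (210) and with close summits counted once (210 within 100 bp; 197 within 250 bp, chosen after seeing the data). It was 112 in the conservative set, 121 at a score of 1000 and 129 with bases exonic in every transcript. Without 1 replicate it was 73 to 112. The percent of summits was 4.31 at 250 bp, 2.34 at 1000 bp, 2.24 in the conservative set, 2.19 at a score of 1000, 2.03 for bases exonic in every transcript and 1.86 to 2.02 without 1 replicate; the summits per Mb were 9.37 at 250 bp, 4.34 in the conservative set, 4.69 at a score of 1000, 6.41 for bases exonic in every transcript and 2.83 to 4.34 without 1 replicate. At a score of 1000, 76.0% of members overlapped the conservative set. Overlap with replicate 1 was 22.4% at 50% reciprocal overlap and 98.6% in its ranked list; with replicate 2 it was 99.0% in its ranked list. The median signal was 107 in the conservative set and 112 for members also in it. The median G and C share was 51.0% within 200 bp and 45.5% in the conservative set. A fixed word was found at 38.1% within 50 bp, 88.1% within 200 bp and 70.5% in the conservative set, and 47.3% of exon summits of the conservative set were exonic in every transcript. Fewer peaks, narrower or wider windows and fewer bases enter these alternatives by construction. No paired analysis was possible because there is 1 group and no comparison between groups. Read depth is unknown, and its part in which weak peaks were called was not tested.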

Other observations

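The conservative set had 112 exon summits by the same rule, of which 98 were the same peaks as in the wider set. The other 14 included 5 that overlapped a wider peak with another start, end or summit and 9 that overlapped none. These 9 lay in coding sequence of CG9119, CG30159, Myo31DF and tank, in 5' UTRs of l(3)05822, dos and igl, and in 3' UTRs of Octbeta1R and chm, with signals of 50.1 to 89.7 in the conservative list. Of them, the summit in igl was in the replicate 1 set and those in Octbeta1R and chm were in the replicate 2 set, so the stricter set was not wholly contained in the wider one. All 9 were named after their values were seen.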
